A study of Mus musculus with 2 samples.

Results

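The genes described here encode the selenoproteins and the factors that make and insert selenocysteine. They were chosen by gene symbol: every symbol beginning with Seleno, Gpx1 to Gpx8, Txnrd1 to Txnrd3, Dio1 to Dio3, Sephs1, Sephs2, Msrb1, Secisbp2, Secisbp2l, Eefsec, Pstk, Sepsecs, Trnau1ap and Scly. The rule found 37 of the 34745 genes in the count table. The list was drawn up because Selenoi differed between the libraries, so its counts chose the list and are given as a description.

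The data are RNA sequencing of gastrocnemius muscle from 8-week-old C57BL/6 mice, with 1 library from CIPC-flox/flox mice and 1 from CIPC-scko mice (scKO below). The flox/flox mice carry Cipc, the gene of the CLOCK-interacting pacemaker protein, flanked by loxP sites. By the series title, scKO means that Cipc was deleted only in satellite cells, from which muscle regenerates. The driver of the recombinase, pooling of animals and the hour of sampling are not given in the labels. The title also names mdx, a dystrophin-deficient strain that no label mentions. With 1 library per genotype there is no replicate check: every difference below compares these libraries, not the genotypes, and no p-value was computed. Where values come in pairs, flox/flox is first and scKO second. Intervals in parentheses are 95% Clopper-Pearson intervals of the ratio of counts and cover counting error only.

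The libraries held 14727219 counts (flox/flox) and 13842100 counts (scKO). Cipc had 658 and 111 counts, a log2 ratio of −2.51 (−2.82 to −2.22). The tissue label fits the markers: Acta1 had 369713 and 341106 counts, and the 6 fibre markers checked summed to 114907 and 108475 CPM (counts scaled to a library total of 1000000). The 3 satellite cell markers summed to 20.6 and 21.9 CPM. The lower Cipc count is that of the whole muscle, and in which cells Cipc RNA was lower was not tested. Of the 3 liver markers, Alb and Apoa1 had 0 counts in both libraries and Ttr had 38 and 39. Whole muscle holds many cell types, so fewer cells of a type and less RNA per cell cannot be told apart here.

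Selenocysteine is a relative of cysteine with selenium in place of sulfur. It is built on its own transfer RNA and inserted at an in-frame UGA codon, which elsewhere means stop, when a hairpin in the 3′ untranslated region (the SECIS element) recruits the binding protein SECISBP2 and the elongation factor EEFSEC. Many selenoproteins are redox enzymes whose selenocysteine sits in the active site. In skeletal muscle, selenium shortage and loss of SELENON are known causes of myopathy, and Selenow is known for high expression there.

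All 24 mouse genes with a selenocysteine codon in the GENCODE M21 annotation (build GRCm38) were among the 37 members, and the other 13 members have none. The 24 coding sequences hold 34 such codons, all of them in-frame TGA in the DNA. Of these genes, 22 have 1 codon, Dio2 has 2 and Selenop, which carries selenium in plasma, has 10. The following stretches, read from GENCODE M21 transcripts, are shown because the TGA in capitals sets these 24 genes apart from the other 13 members. Each gives 21 bases of coding sequence before the codon and up to 21 bases after it, ending at the stop codon where that comes first.
Selenoi, codon 388 of 398: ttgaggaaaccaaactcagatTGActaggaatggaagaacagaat
Gpx3, codon 73 of 226: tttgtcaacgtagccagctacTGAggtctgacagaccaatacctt
Gpx1, codon 47 of 201: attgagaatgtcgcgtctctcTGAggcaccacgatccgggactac
Gpx4, codon 73 of 197: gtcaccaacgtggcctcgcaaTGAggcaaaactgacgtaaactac
Selenow, codon 13 of 88: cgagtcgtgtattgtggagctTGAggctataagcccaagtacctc
Selenok, codon 92 of 94: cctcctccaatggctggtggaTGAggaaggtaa
Txnrd1, codon 498 of 499: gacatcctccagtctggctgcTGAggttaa
Selenop, first of 10, codon 59 of 380: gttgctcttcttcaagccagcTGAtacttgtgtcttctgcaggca
In 7 genes the only codon lies within 10 codons of the end of the coding sequence: Selenoi, Selenok, Selenos, Selenoo, Txnrd1, Txnrd2 and Txnrd3. In the other 17 the first codon lies further in.

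**Figure D1:**
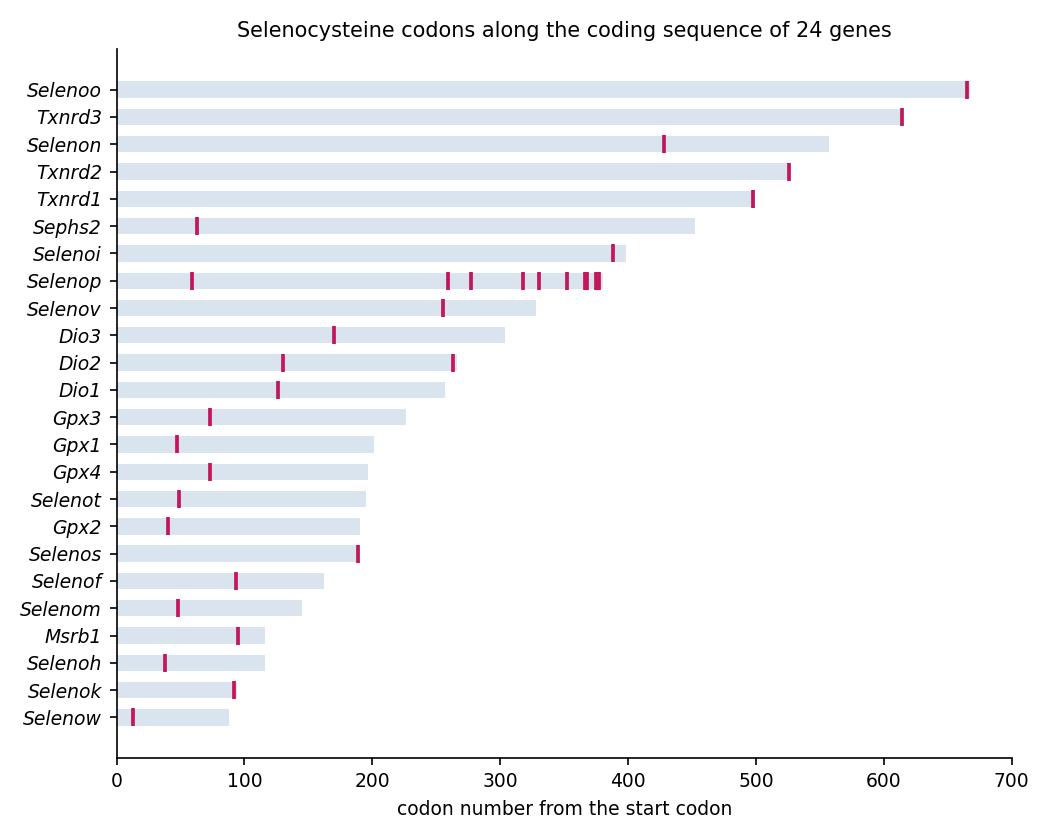
Coding sequence of each of the 24 genes (pale bar, length in codons) with its selenocysteine codons (red ticks), numbered from the start codon. The tick of Selenoi, codon 388 of 398, lies near the end, that of Selenow is codon 13 of 88, and Selenop has 10 ticks.

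Of the 37 members, 32 had at least 1 count and 30 reached a summed count of 20, the minimum for a ratio to be read (tested genes below). The 5 members with 0 counts in both libraries were Gpx2, the intestinal glutathione peroxidase, Gpx5 and Gpx6, Dio1 and Selenov. A count of 0 allows up to 0.204 CPM (flox/flox) and 0.217 CPM (scKO), for counting error only. Dio3, which inactivates thyroid hormone, had 7 and 2 counts, and the pseudogene Selenok-ps1 had 1 count in each library. Counting error sets the precision: for the 10 members with at least 1000 counts the interval extended on average over both sides by at most 0.17 on the log2 scale, and for the 9 members below 200 counts by at least 0.43.

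Levels of different genes are compared on the deposited FPKM scale (fragments scaled by gene length and library size). Selenow, a small thiol redox protein, was the highest member by far, at 898 FPKM in flox/flox and 892 FPKM in scKO, or 75.2% and 71.9% of the summed FPKM of all members. Msrb1, which reduces oxidised methionine, followed at 52.0 and 55.2 FPKM. Selenot, a redox protein of the endoplasmic reticulum, had 48.9 and 54.9 FPKM. Gpx3, the secreted glutathione peroxidase, had 28.7 and 53.8 FPKM, so it stood close to Msrb1 and Selenot in scKO and well below them in flox/flox. Selenok had 25.4 and 31.7 FPKM and Selenop 25.1 and 27.9 FPKM. The least abundant members past the count minimum were Selenoi (0.160 and 0.653 FPKM) and Dio2 (0.350 and 0.249 FPKM). In 25 of the 30 the gene length behind the FPKM matched, to within 1%, the sum of the gene's distinct exons in GENCODE M21, which counts overlapping exons more than once. At the median of the 30 this length was 1.29 times the merged exons. For Selenow it equalled them, which raises the Selenow share of the summed FPKM. Per kilobase of merged exons, 4 of the 5 highest members were the same, with Selenop in place of Selenok.

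**Figure D2:**
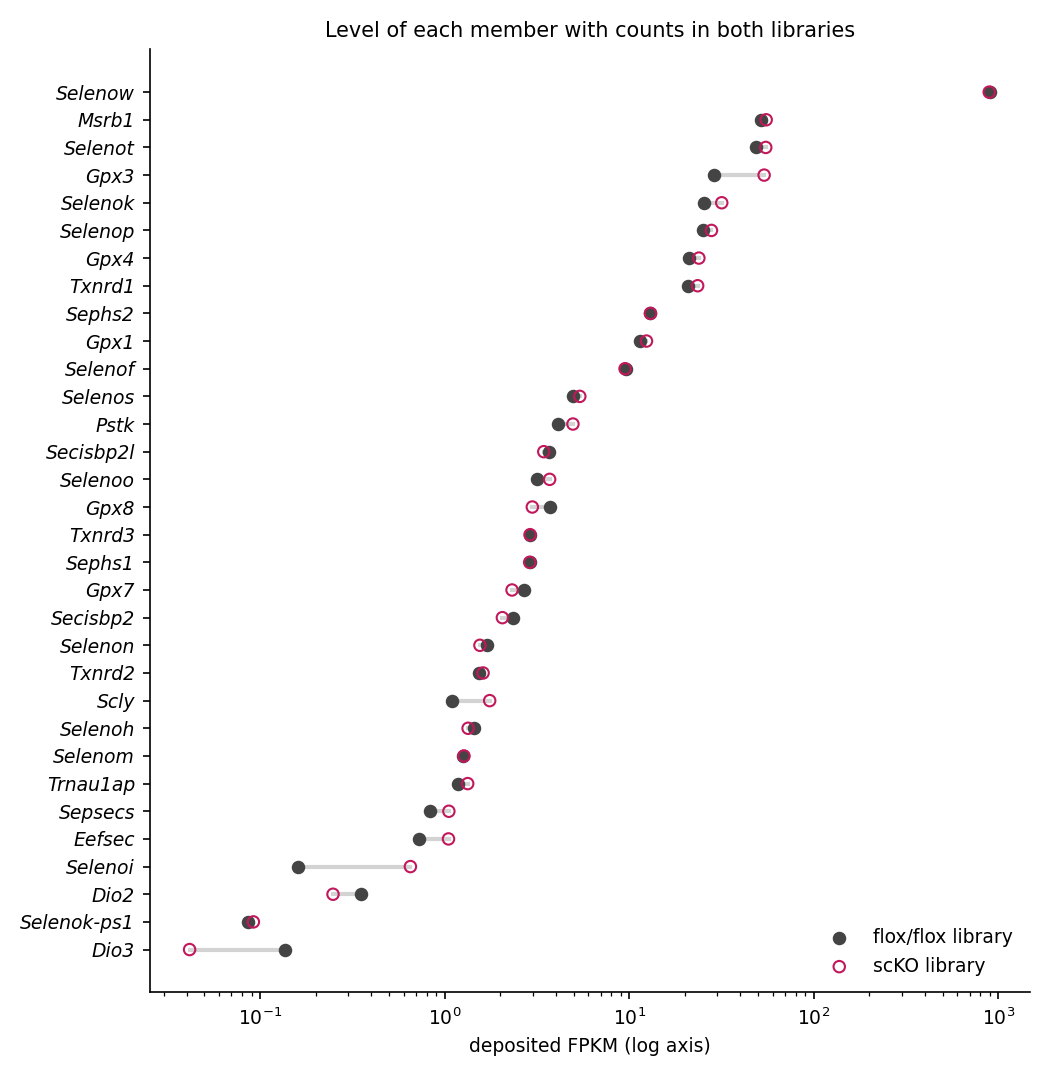
Deposited FPKM of the 32 members with counts (log axis) in the flox/flox library (filled) and the scKO library (open). Selenow stands apart at 898 and 892 FPKM, the scKO circle of Gpx3 (53.8) is drawn level with those of Msrb1 and Selenot, and the circles of Selenoi lie farthest apart among members past the count minimum.

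Selenoi had 40 counts (flox/flox) and 153 counts (scKO), or 2.72 and 11.1 CPM. It was 3.96-fold higher in scKO, a log2 ratio of 1.97 (1.48 to 2.53), the 32nd highest ratio of the 12662 genes with at least 20 counts. The gene (ENSMUSG00000075703) lies on the plus strand at chr5:30232581-30272427 in GRCm38, with 13135 bases of merged exons, none of them shared with another annotated gene. Its product is ethanolamine phosphotransferase, which joins ethanolamine to diacylglycerol in the last step of phosphatidylethanolamine synthesis and is unusual among selenoproteins in making lipid rather than acting on redox substrates. Its TGA codon lies at chr5:30266964-30266966. The counts cover the whole gene, so they do not show which exons or transcripts the additional scKO counts came from. Of the genes within 500000 bases of Selenoi, 6 were tested, with a median log2 ratio of 0.04, no interval above 0 and 2 below. Among all 12662 genes these shares were 12.8% and 12.3%. The nearest, Hadhb, a subunit gene of the mitochondrial trifunctional protein, ends 47988 bases before Selenoi on the same strand. It had 1020 and 485 counts, a log2 ratio of −1.02 (−1.18 to −0.86), opposite in sign to Selenoi.

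Among members that reached the count minimum, Selenoi was the only one at least 2-fold apart, and none was at least 2-fold lower. Over all 12662 genes tested, 1.49% passed the same bound upwards and 1.91% downwards, each with an interval that excluded a ratio of 1. Counted by interval alone, 8 of the 30 members lay above 0 and 1 below, against 12.8% and 12.3% of all tested genes. Deeply counted genes have narrow intervals: among genes with at least 1000 counts these shares were 23.1% and 20% (6 and 1 of the 10 members). At a bound of 1.5-fold, 3 members were higher (Selenoi, Gpx3 and Scly) and none lower, against 3.47% and 4.12% of all tested genes. The split by interval depended on scaling: total counts gave 10 members above and none below (16.6% and 9.7% of all genes), and DESeq2 size factors 6 and 1 (11.8% and 13.2%). Since the list was chosen on this contrast, nothing is read from these counts. The median log2 ratio was 0.07 over the 30 members and 0.05 without Selenoi, beside 0.0021 over all tested genes.

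**Figure D3:**
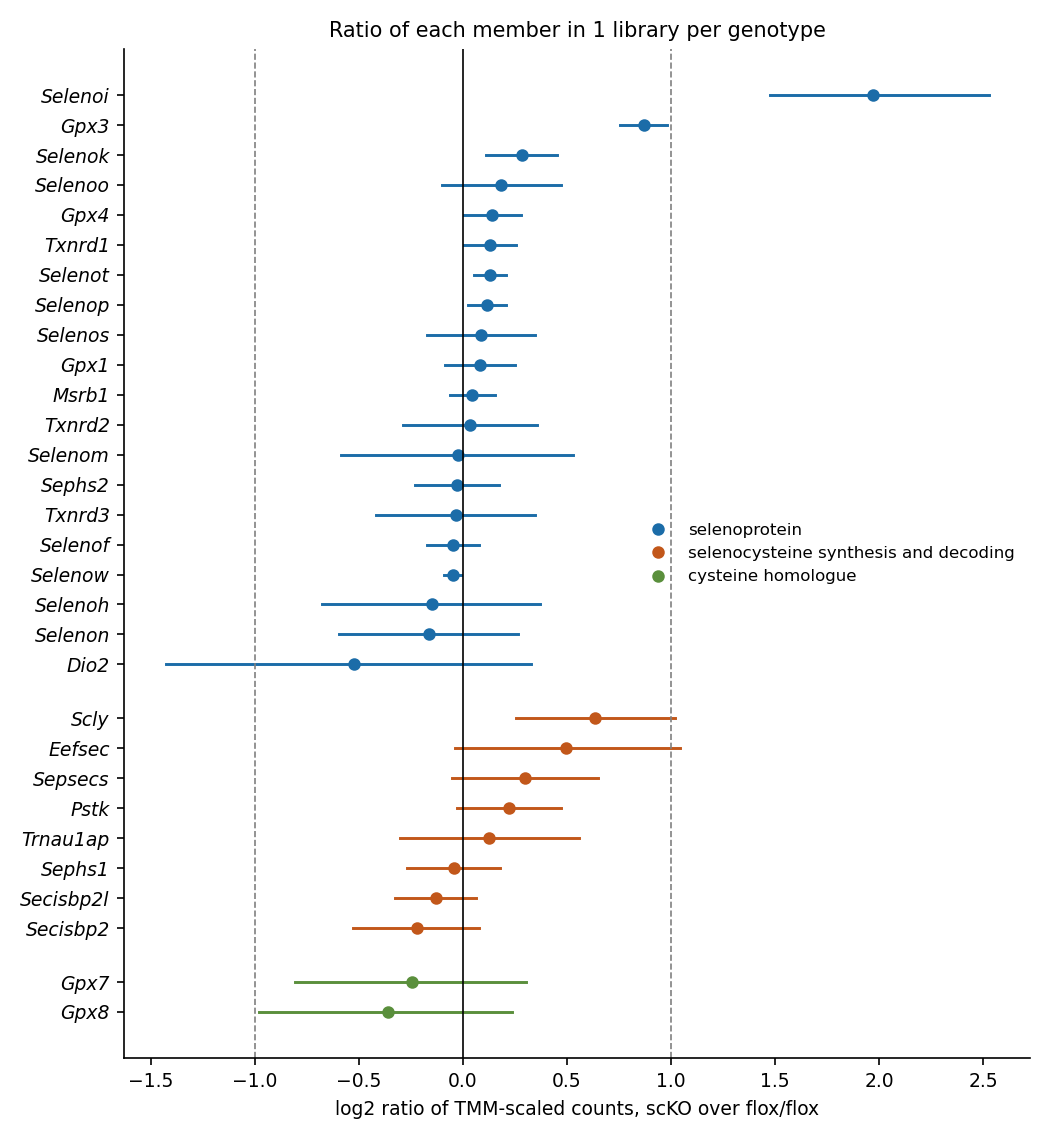
Log2 ratio of TMM-scaled counts (scKO over flox/flox) for the 30 members with a summed count of at least 20, with 95% counting intervals. Sephs2 is drawn with the selenoproteins although it also belongs to the synthesis genes, and dashed lines mark 2-fold. Selenoi at 1.97 is the only point past a dashed line, with Gpx3 at 0.87 next.

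**Figure D4:**
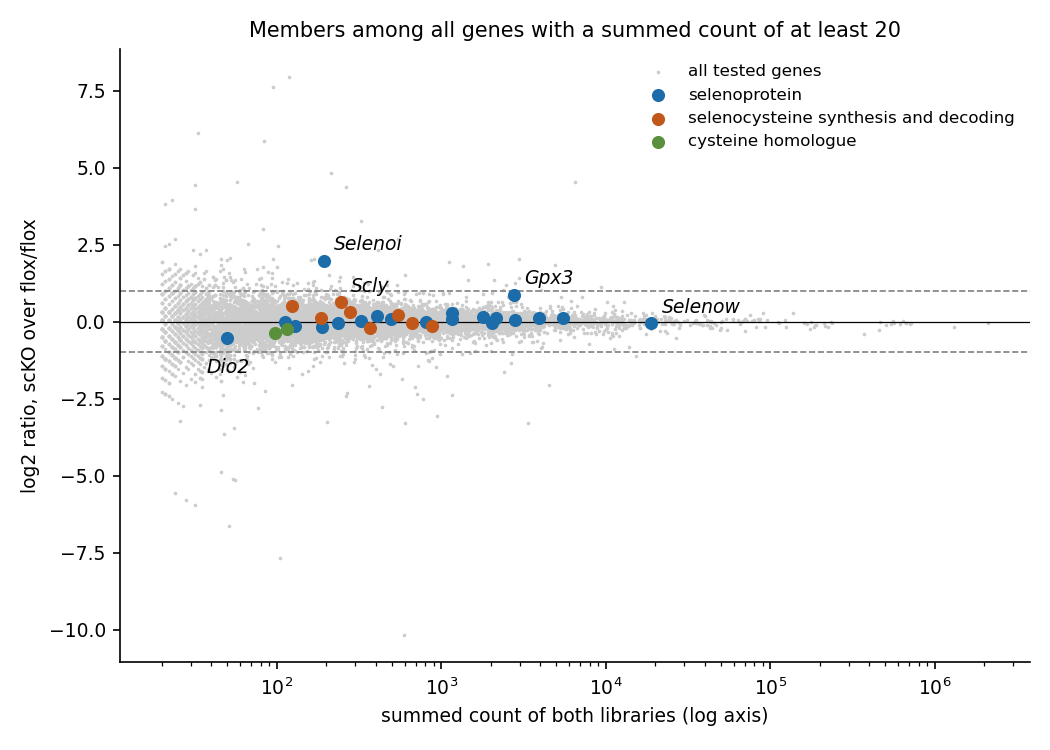
Log2 ratio against summed count (log axis) for all 12662 tested genes (grey) and the 30 members (coloured). The grey cloud narrows with depth, and Selenoi and Gpx3 are the members farthest above 0.

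The selenocysteine-containing glutathione peroxidases differed from each other. Gpx3 (ENSMUSG00000018339, chr11:54902453-54910377, plus strand) had 1002 and 1767 counts, or 68.0 and 128 CPM. It was 1.83-fold higher in scKO, a log2 ratio of 0.87 (0.76 to 0.98), the largest member ratio after Selenoi. Gpx4, which reduces lipid hydroperoxides in membranes and protects against ferroptosis, had 869 and 926 counts, 59.0 and 66.9 CPM, and a log2 ratio of 0.14 (0.01 to 0.28), an interval that included 0 with DESeq2 size factors. Gpx1, the abundant cytosolic form, had 573 and 586 counts and a log2 ratio of 0.08 (−0.09 to 0.25). On the FPKM scale Gpx3 was 1.36 times Gpx4 in flox/flox and 2.26 times in scKO, while Gpx1 was 0.542 and 0.520 times Gpx4. These ratios depend on the lengths behind the FPKM, which were 1.31 (Gpx3), 1.63 (Gpx4) and 2.37 (Gpx1) times the merged exons. Per kilobase of merged exons the genes lay closer, with Gpx3 at 37.5 and 70.4 CPM, Gpx4 at 34.2 and 38.8, and Gpx1 at 27.0 and 29.4. Gpx3 was the highest of the family in both libraries, by a wider margin in scKO. The homologues that use cysteine, Gpx7 and Gpx8, both of the endoplasmic reticulum, had 64 and 52 counts and 56 and 42 counts. Their log2 ratios of −0.25 (−0.80 to 0.30) and −0.36 (−0.98 to 0.24) had intervals that include 0.

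Gpx3 is also expressed outside muscle fibres, so the marker lists of other cell types stand beside it. All 4 adipocyte markers (Adipoq, Plin1, Cidec, Lep) had intervals that include 0, and they summed to 10.1 and 11.1 CPM. The 4 endothelial markers summed to 142 and 157 CPM, with 1 of 4 intervals above 0. The 4 macrophage markers summed to 18.27 and 20.95 CPM, with none of 4 intervals off 0, and the 3 fibro-adipogenic markers to 290 and 275 CPM, with 2 of 3 below. The 4 erythroid markers all had intervals below 0, with a median log2 ratio of −0.45, and summed to 124 and 98.0 CPM. The 3 satellite cell markers summed to 20.6 and 21.9 CPM, with Pax7 below 0 at −0.76 (−1.38 to −0.19). The 3 Schwann markers summed to 38.8 and 37.9 CPM and the 3 smooth muscle markers to 56.2 and 61.4 CPM, each with 1 interval below 0 (Sox10 and Cnn1, both at few counts). Among all tested genes, 12.8% of intervals lay above 0 and 12.3% below. The part of these cell types in the Gpx3 result was not tested. Of the genes within 500000 bases of Gpx3, 12 were tested, with a median log2 ratio of −0.12, 2 intervals above 0 (Hint1 at 0.31 and Anxa6 at 0.15) and 2 below (Tnip1 and Sparc, the latter at −0.58). The nearest, Tnip1, lies on the opposite strand with its 3′ end 408 bases beyond Gpx3 and was lower in scKO, with 498 and 335 counts and a log2 ratio of −0.52 (−0.72 to −0.32).

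The thioredoxin reductases keep thioredoxin reduced with electrons from NADPH. Txnrd1, the cytosolic enzyme, had 1051 and 1111 counts, 71.4 and 80.3 CPM, and a log2 ratio of 0.13 (0.01 to 0.25), whose interval likewise included 0 with DESeq2 size factors. Txnrd2, the mitochondrial enzyme, had 164 and 162 counts and a log2 ratio of 0.03 (−0.29 to 0.36). Txnrd3 had 121 and 114 counts and a log2 ratio of −0.03 (−0.42 to 0.35). The family summed to 90.7 and 100.2 CPM, a log2 ratio of 0.11 (−0.0042 to 0.21) for the summed counts.

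Of the 7 selenoproteins of the endoplasmic reticulum other than Selenoi, Selenok and Selenot had intervals above 0, beside 12.8% of all tested genes. Among genes with at least 1000 counts, as both have, that share was 23.1%. The intervals of the others included 0, among them that of Dio2, whose values stand with the deiodinases. Selenok, a partner of the palmitoylating enzyme ZDHHC6 and of the machinery that clears misfolded proteins, had 534 and 627 counts, 36.3 and 45.3 CPM, and a log2 ratio of 0.28 (0.11 to 0.45). Selenot had 2662 and 2813 counts, 181 and 203 CPM, and a log2 ratio of 0.13 (0.05 to 0.21). Selenos, which binds VCP in the same clearance pathway, had 246 and 252 counts and a log2 ratio of 0.09 (−0.17 to 0.35). Selenof, which works with the glycoprotein-folding sensor UGGT, had 1055 and 986 counts and a log2 ratio of −0.05 (−0.17 to 0.08). Selenom had 58 and 55 counts and Selenon, whose loss causes congenital myopathy, 101 and 87 counts. Both of these had intervals that include 0, at log2 ratios of −0.02 (−0.58 to 0.53) and −0.16 (−0.59 to 0.26).

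Selenow, the most abundant member, had 9732 and 9086 counts, or 661 and 656 CPM. Its log2 ratio of −0.05 (−0.09 to −0.01) was the only member interval below 0, and with total-count scaling that interval included 0. Msrb1 had 1405 and 1401 counts, 95.4 and 101 CPM, and a log2 ratio of 0.05 (−0.06 to 0.15). Selenoh, a nuclear redox protein, had 69 and 60 counts, at −0.15 (−0.67 to 0.37), and Selenoo, a mitochondrial enzyme that attaches AMP to proteins, 195 and 214, at 0.18 (−0.10 to 0.47). The RNAs of Gpx1, Selenow, Selenoh and Msrb1 are known to fall when selenium is short. Their log2 ratios here ran from −0.15 to 0.08. This set was put together after its values were seen.

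Selenop, the plasma selenium carrier made mainly by liver, had 1926 and 2015 counts, 131 and 146 CPM, and a log2 ratio of 0.12 (0.03 to 0.21). Of the liver markers, Alb and Apoa1 were at 0 counts and Ttr at 2.58 and 2.82 CPM, with a log2 ratio of 0.09 (−0.59 to 0.77). Its receptor Lrp8 had 2 and 1 counts, and Lrp2, the kidney receptor, 0 in both libraries. Of the deiodinases, which switch thyroid hormone on or off, Dio2, the activating enzyme of muscle, had 30 and 20 counts and a log2 ratio of −0.52 (−1.43 to 0.33). Of the 10 genes of thyroid hormone transport and receptors, 9 were tested and none had an interval off 0, with a median log2 ratio of 0.0101. Over all tested genes, 12.8% of intervals lay above 0 and 12.3% below, so most genes had none off 0. With DESeq2 size factors 1 of the 9 had an interval off 0. This was Ncor1, a co-repressor gene that stood at −0.10 (−0.20 to 0.0058) with TMM. The receptor genes Thra and Thrb stood at 0.0036 (−0.14 to 0.14) and −0.13 (−0.36 to 0.10), and Rxrg at −0.12 (−0.30 to 0.06).

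Selenocysteine is made on its transfer RNA in steps. Sephs2, itself a selenoprotein, makes the selenium donor selenophosphate, Pstk phosphorylates the serine on the transfer RNA, and Sepsecs converts it to selenocysteine. Sephs2 had 415 and 393 counts and a log2 ratio of −0.03 (−0.23 to 0.18), and its relative Sephs1, which has no selenocysteine and does not make the donor, 345 and 323 counts at −0.04 (−0.27 to 0.18). Pstk had 255 and 287 counts, at 0.22 (−0.03 to 0.47), and Sepsecs 128 and 152, at 0.30 (−0.05 to 0.65). Trnau1ap, which binds the transfer RNA, had 91 and 96 counts, at 0.13 (−0.30 to 0.56). All of these intervals include 0, except that of Pstk with total-count scaling (0.26, 0.01 to 0.51).

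The decoding factors also had intervals that include 0 under the main scaling. Eefsec, the elongation factor, had 52 and 71 counts, at 0.50 (−0.04 to 1.05, and 0.0023 to 1.08 with total-count scaling). The SECIS-binding protein gene Secisbp2 had 203 and 168 counts, at −0.22 (−0.53 to 0.08), and its relative Secisbp2l 466 and 411 counts, at −0.13 (−0.32 to 0.06). Scly, the lyase that recovers selenium from selenocysteine, was the one machinery gene with an interval above 0. It had 98 and 147 counts, 6.65 and 10.6 CPM, and was 1.55-fold higher, a log2 ratio of 0.63 (0.26 to 1.02). The 9 genes of synthesis, decoding and recycling had a median log2 ratio of 0.13 and summed to 139 and 148 CPM. Of 15 further factors linked to this transfer RNA, decoding and selenium uptake, 13 were tested, with a median of 0.04, 2 intervals above 0 and none below. The shares over all tested genes were 12.8% and 12.3%. The cap hypermethylase gene Tgs1 stood at 0.36 (0.04 to 0.69), the export receptor gene Xpo1 at 0.31 (0.14 to 0.48), Smn1 at −0.23 (−0.64 to 0.18) and Elavl1 at 0.19 (−0.04 to 0.43).

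Ethanolamine and choline phospholipids are made by parallel routes in which a kinase, a CTP-using transferase and a phosphotransferase act in turn. Of the 19 other genes listed for these routes, 16 were tested. Their median log2 ratio was 0.04, with 5 intervals above 0 and 1 below (12.8% and 12.3% over all tested genes), and 1 gene was at least 2-fold apart. That gene was Pcyt1a, the rate-limiting CTP-using transferase of phosphatidylcholine synthesis, with 828 and 2155 counts. It was 2.70-fold higher, a log2 ratio of 1.43 (1.31 to 1.55). Pcyt2, its counterpart in the ethanolamine route and the enzyme just before SELENOI, had 324 and 330 counts and a log2 ratio of 0.08 (−0.15 to 0.30).

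The other steps differed less. The first kinase of the ethanolamine route, Etnk1, had 492 and 553 counts, at 0.22 (0.04 to 0.40). Cept1, the phosphotransferase that can also complete the ethanolamine route, had 173 and 134 counts, at −0.32 (−0.65 to 0.02). Of the choline genes, Chkb, the kinase whose loss causes muscular dystrophy in mice, had 307 and 234 counts, at −0.34 (−0.59 to −0.09). The other choline kinase, Chka, went the opposite way at low counts, with 22 and 40, at 0.90 (0.13 to 1.73), an interval that extends past 2-fold. Chpt1, the phosphotransferase of the choline route, had 1522 and 1703 counts, at 0.21 (0.11 to 0.31). Of the genes of ether lipid synthesis, only Gnpat had an interval off 0, at 0.21 (0.13 to 0.29). Far1 was at −0.46 (−0.95 to 0.01). Agps stood at −0.03 (−0.24 to 0.18) and Tmem189 at −0.23 (−0.59 to 0.13). Pisd, which makes phosphatidylethanolamine in mitochondria, stood at −0.0047 (−0.29 to 0.28).

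**Figure D5:**
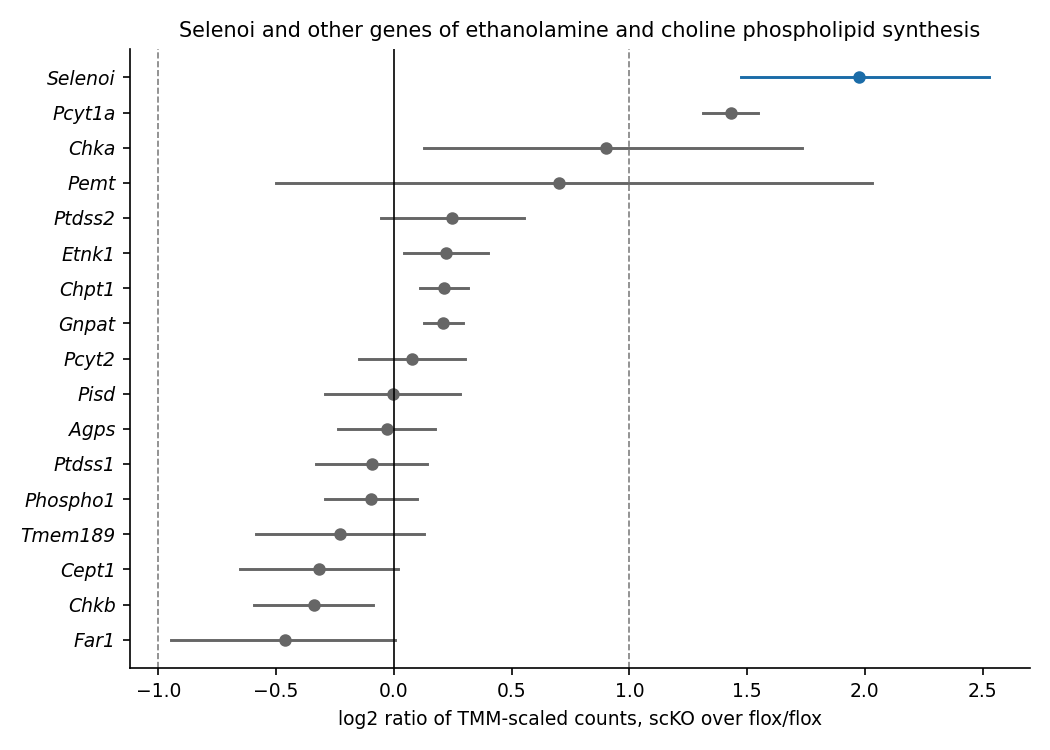
Log2 ratio with 95% counting interval for Selenoi (blue) and the 16 tested genes of ethanolamine and choline phospholipid synthesis (grey). Dashed lines mark 2-fold, and Selenoi (1.97) and Pcyt1a (1.43) are the points beyond them.

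Partners of the redox selenoproteins showed small differences in both directions. Of 26 genes of glutathione and thioredoxin metabolism, 25 were tested, with a median of 0.09, 7 intervals above 0, 4 below and none at least 2-fold apart. These are 28% and 16% of the 25, beside 12.8% and 12.3% of all tested genes. Among genes with at least 1000 counts the shares were 23.1% and 20%. The mitochondrial glutaredoxin gene Glrx2 had 397 and 264 counts, at −0.54 (−0.77 to −0.31). Msrb2, the mitochondrial relative of Msrb1 without selenium, had 148 and 200 counts, at 0.48 (0.17 to 0.80). Txnip, which binds and inhibits thioredoxin, stood at 0.37 (0.32 to 0.43) and Glrx5 at 0.31 (0.12 to 0.49). The glutathione synthesis genes Gclc and Gclm stood at 0.0037 (−0.26 to 0.27) and 0.0013 (−0.24 to 0.24).

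Of 17 further endoplasmic reticulum genes, listed for clearance, folding and calcium handling beside the selenoproteins there, 16 were tested, with a median of −0.0025, 3 intervals above 0 and 3 below. Each count is 18.75% of the 16, beside 12.8% above and 12.3% below over all tested genes. Sel1l, a scaffold of the clearance complex with which SELENOK and SELENOS associate, was the lowest, with 754 and 404 counts, at −0.85 (−1.03 to −0.67). Dgat2, an enzyme that uses diacylglycerol for triglyceride, had 777 and 1041 counts, at 0.47 (0.34 to 0.61). The calcium pump gene Atp2a2 stood at −0.37 (−0.41 to −0.33), and Pdia4 at 0.30 (−0.06 to 0.68). Ryr1, the calcium release channel that SELENON is known to act on, had 58713 and 54894 counts, at −0.05 (−0.06 to −0.03).

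Because CIPC inhibits CLOCK and BMAL1, which bind the E-box CACGTG, promoter windows were searched for it. RefSeq windows of 300 bases (250 before the start site, 50 after it, GRCm38.p6) matched 35 of the 37 members, leaving Sepsecs and Selenok-ps1. Matches on either strand were counted, and a gene with several windows counted once. CACGTG was found in 5 of the 35 (14.3%), beside 8.09% of all 27025 genes with a window. These were Selenos, Sephs2, Secisbp2, Selenoh and Gpx6, and the 4 that were tested had log2 ratios from −0.22 to 0.09 with intervals that include 0. Neither Selenoi nor Gpx3 had a match in these windows. The GC box GGGCGG, bound by Sp factors, was found in 21 members (60.0%) and in 38.2% of all genes, with 4 matches in the Selenoi window and 1 in that of Gpx3. The antioxidant response element TGACNNNGC, bound by NRF2, was found in Selenok and Txnrd1, or 5.71% of the members, beside 14.0% of all genes. None of the 3 motifs contains another.
The 250 bases before each RefSeq start site are shown for the members with the largest ratios, with GC boxes in capitals and none of the other motifs present. The Gpx3 stretch lies inside the GENCODE M21 gene, which starts at chr11:54902453, and bases before that start were not searched.
Selenoi, chr5:30232331-30232580, plus strand: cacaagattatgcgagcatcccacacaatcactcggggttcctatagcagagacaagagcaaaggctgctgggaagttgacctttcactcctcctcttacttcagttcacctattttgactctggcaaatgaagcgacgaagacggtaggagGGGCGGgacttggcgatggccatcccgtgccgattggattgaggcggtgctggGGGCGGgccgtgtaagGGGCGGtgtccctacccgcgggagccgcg
Gpx3, chr11:54902604-54902853, plus strand: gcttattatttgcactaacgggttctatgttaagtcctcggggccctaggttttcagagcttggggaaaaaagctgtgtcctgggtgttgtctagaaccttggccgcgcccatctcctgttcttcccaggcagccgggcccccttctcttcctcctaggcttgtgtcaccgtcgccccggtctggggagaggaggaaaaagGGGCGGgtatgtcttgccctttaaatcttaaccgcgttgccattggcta
Of the 4 GC boxes of Selenoi, 3 lie in the stretch shown and the fourth lies after the start site. A match is a run of letters and was not tested as a binding site.

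The exons of 8 members overlap those of another gene, always on the opposite strand, and the strand setting of the counting is not given in the sources used here. In 3 of them the partner had counts. Among these, by GENCODE M21, Pstk shares 58.8% of its merged exons with Ikzf5 (317 and 298 counts) and Selenoo 26.7% with Tubgcp6 (252 and 268 counts). The length behind the FPKM of Pstk was 4183 bases, below the 4652 shared bases and the 7914 bases of merged exons. The share of the Pstk exons as counted is therefore not known. Reads of these pairs could be counted for either gene. Selenoi, Gpx3 and Scly are not among the 3, although Scly shares 3.50% of its exons with the antisense gene Gm17090, which had 0 counts.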

How the data were processed

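Total RNA of gastrocnemius muscle was sequenced in 2 libraries, 1 per genotype. The authors deposited whole-number gene counts for both libraries and, per the file headers, 1 FPKM column per library. HISAT2 2.0.4, StringTie 1.3.0, CASAVA and the build GRCm38 are named in the submitters' processing notes. The order of use, the annotation release and the treatment of reads matching several genes are not given in the sources used here. Near-identical copies, such as Selenok and its pseudogene, could therefore share reads.

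Symbols came from a table of gene names (34267 of 34745 identifiers), and positions and codons from GENCODE M21. Counts were scaled by TMM (edgeR 4.0.16, R 4.3.3), and log2 ratios used a prior count of 0.5. Folds are ratios of scaled counts without it. Genes with a summed count of at least 20 were tested, meaning that their ratio and exact 95% interval were read, and a gene was called 2-fold apart where the interval also excluded 1. The scripts were tested on simulated counts. Python 3.11.15, scipy 1.17.1 and matplotlib 3.10.9 were used. Alternatives were DESeq2 1.42.0 size factors, total counts, TMM without mitochondrial genes, count minimums of 1 and 100, a prior count of 5, 1.5-fold, and log2(FPKM + 0.1). Levels per kilobase of merged exons were added after the data were seen. The members and gene lists were chosen with earlier results of these data known. Every member was named; from each companion list, any gene 2-fold apart and up to 4 with the largest ratios among those with at least 100 counts were named, and further genes were chosen after their values were seen. The values of 1 gene of the thyroid hormone list and of 1 overlapping partner gene are not reported here.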

Additional observations from a re-analysis of the deposited data

How the results depend on the processing

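The log2 ratio of Selenoi ran from 1.53 on the FPKM scale, where the pseudocount of 0.1 is close to its level, to 2.01 with total-count scaling. All 30 members' ratios stayed within their counting intervals under the 5 alternatives run on them. Members at least 2-fold higher numbered 1 under both other scalings and both count minimums and 3 at 1.5-fold (Selenoi, Gpx3 and Scly). Members with an interval below 0 numbered 0 with total-count scaling instead of 1. Over all genes, those at least 2-fold higher numbered 189, and 58 with a count minimum of 100 or 440 at 1.5-fold. Those at least 2-fold lower numbered 242, and 369 with a minimum of 1, 68 with a minimum of 100 or 522 at 1.5-fold. Thyroid hormone genes with an interval off 0 numbered 1 with DESeq2 size factors instead of 0. The cause of these shifts was not tested beyond the settings themselves. No paired analysis was possible because each group has 1 library, and for the same reason no library could be left out. Depth limits the scarce members most: the intervals of Eefsec, Scly and Dio2 extend past 2-fold.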
